A study of Homo sapiens with 2 samples.

Results

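RMRP, RPPH1 and TERC are 3 structured RNAs that carry no poly(A) tail in their mature form, and each is the core of a ribonucleoprotein enzyme. They are described here with POP1, POP4, POP5, POP7, RPP30, RPP38 and RPP40, 7 genes for proteins shared by the RNase P and RNase MRP complexes. The 3 RNAs were selected on their counts in the same 2 libraries described here, where they stood out as higher after knockdown of SRSF2, and the protein genes were added to see whether they went the same way. The values of all 10 members are therefore a description, without a test. The count table lists all 10 among its 54261 gene symbols, and 9 of the 10 averaged at least 1 CPM, counts scaled to a library of 1000000, over both libraries, as did 12620 genes in all. TERC did not, and RMRP and RPPH1 reached that mean only through the library in which they were high.

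RKO is a human colorectal carcinoma cell line. Its cells were given either a non-targeting siRNA, si-NC, or one against the splicing factor SRSF2, si-SRSF2, and the labels name neither a dose nor a time of harvest. RNA from each group went into 1 poly(A)-selected, strand-specific library, with no replicate of either. The library of si-NC cells contained 19931360 counts over 19882 genes, and that of si-SRSF2 cells contained 14512802 over 19467.

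The targeted gene was examined first. SRSF2 had 1964 counts with si-NC and 713 with si-SRSF2, or 98.5 and 49.1 CPM after scaling of the library sizes. The log2 ratio of si-SRSF2 over si-NC was -1.004, with a 95% Clopper-Pearson interval from -1.13 to -0.88, so that 49.9% of the control level was left. With upper-quartile scaling the ratio was -0.98, just short of 2-fold. Intervals of this kind cover counting error only and not the variation between transfections. For ratios a count of 0 was set to 3 counts, which was 0.151 CPM with si-NC and 0.207 CPM with si-SRSF2.

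Epithelial markers were checked against the labelled cell type. KRT8 (547 counts with si-NC and 618 with si-SRSF2), KRT18 (632 and 477), EPCAM (179 and 147) and CDX2 (212 and 158) were all counted in both libraries. In CPM, KRT8 was higher with si-SRSF2 (log2 ratio 0.63, interval 0.47 to 0.80), and the intervals of the other 3 held 0. CDH1 was low with 10 and 6 counts, and KRT19 and VIL1 had 1 count in each library, so 3 of the 7 epithelial markers were at or near 0. Among the 8 markers of leukocytes, fibroblasts and endothelium, CD68, a lysosomal gene that many cell lines express, had 15206 and 14256 counts, a log2 ratio of 0.36 (interval 0.33 to 0.40). The other 7 summed to 25 counts with si-NC and 18 with si-SRSF2, with CD3E, DCN and PECAM1 at 0 in both.

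RNase P removes the leader at the 5′ end of precursor transfer RNAs, and RPPH1 is its catalytic RNA. RNase MRP has RMRP as its RNA, cuts precursor ribosomal RNA, and shares most of its proteins with RNase P. Inherited changes in RMRP cause cartilage-hair hypoplasia. TERC is the template RNA of telomerase, which adds telomere repeats to chromosome ends and is active in most carcinoma lines. RMRP and RPPH1 are transcribed by RNA polymerase III from promoters that lie upstream of the transcript, while TERC is transcribed by RNA polymerase II and trimmed at its 3′ end.

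Each of the 3 RNAs is encoded by a gene without introns, and the sequences are printed to show how short and how different these RNAs are. RMRP (ENSG00000277027.1, chr9:35657754-35658017, minus strand of GRCh38) is annotated in GENCODE release 44 with 264 bases and is shown whole. RPPH1 (ENSG00000277209.1, chr14:20343075-20343407, minus strand) has 333 bases, of which the last 300 are shown. Capitals in RMRP and RPPH1 mark the longest stretch the 2 RNAs have in common, of 9 bases, far shorter than a sequencing read. TERC (ENSG00000270141.3, chr3:169764520-169765060, minus strand) is annotated with 541 bases. Its first 120 bases are shown, with the telomere repeat template in capitals.
RMRP: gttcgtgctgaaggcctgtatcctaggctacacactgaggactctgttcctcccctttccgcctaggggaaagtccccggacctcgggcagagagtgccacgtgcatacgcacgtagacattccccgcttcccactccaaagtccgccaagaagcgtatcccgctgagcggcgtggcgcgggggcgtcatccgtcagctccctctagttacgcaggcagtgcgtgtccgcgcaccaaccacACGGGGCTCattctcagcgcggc
RPPH1: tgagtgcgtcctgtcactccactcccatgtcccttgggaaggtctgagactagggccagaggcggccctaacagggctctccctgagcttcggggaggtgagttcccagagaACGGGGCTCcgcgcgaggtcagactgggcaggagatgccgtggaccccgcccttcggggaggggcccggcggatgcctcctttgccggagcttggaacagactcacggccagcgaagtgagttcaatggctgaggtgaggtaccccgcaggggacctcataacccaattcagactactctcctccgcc
TERC: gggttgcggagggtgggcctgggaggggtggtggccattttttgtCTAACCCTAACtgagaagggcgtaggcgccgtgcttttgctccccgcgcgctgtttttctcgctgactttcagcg

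The 3 RNAs were all rich in G and C, with 63.3% in RMRP, 64.6% in RPPH1 and 66.7% in TERC. None held a long run of A. The longest had 3 bases in RMRP, 2 in RPPH1 and 6 in TERC. Past the annotated end of RPPH1 in RefSeq, the genome held a run of 22 A within the next 60 bases, at chr14:20343011-20343070 and given here on the strand of the RNA with that run in capitals. In the same distance past RMRP and TERC, the longest runs of A had 1 and 2 bases.
After RPPH1: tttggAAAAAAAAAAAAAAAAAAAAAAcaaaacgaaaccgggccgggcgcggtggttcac

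RMRP had 10 counts with si-NC and 230 with si-SRSF2, that is 0.502 CPM (95% Poisson interval 0.241 to 0.923) and 15.8 CPM (13.9 to 18.03). The log2 ratio was 4.98, with an interval from 4.08 to 6.06, or 31.6-fold (16.9 to 66.7). RPPH1 had 1 count with si-NC and 104 with si-SRSF2, or 0.0502 and 7.17 CPM. Its log2 ratio of 7.16 had a wide interval, from 4.65 to 12.48, because of the single count in the control. TERC had 1 and 14 counts, or 0.0502 and 0.965 CPM, and a log2 ratio of 4.26 with an interval from 1.55 to 9.67. In all 3 the si-SRSF2 library was the high one, as the choice of members implied. The intervals of the 3 ratios overlapped one another, so their order could not be told at this depth.

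**Figure D1:**
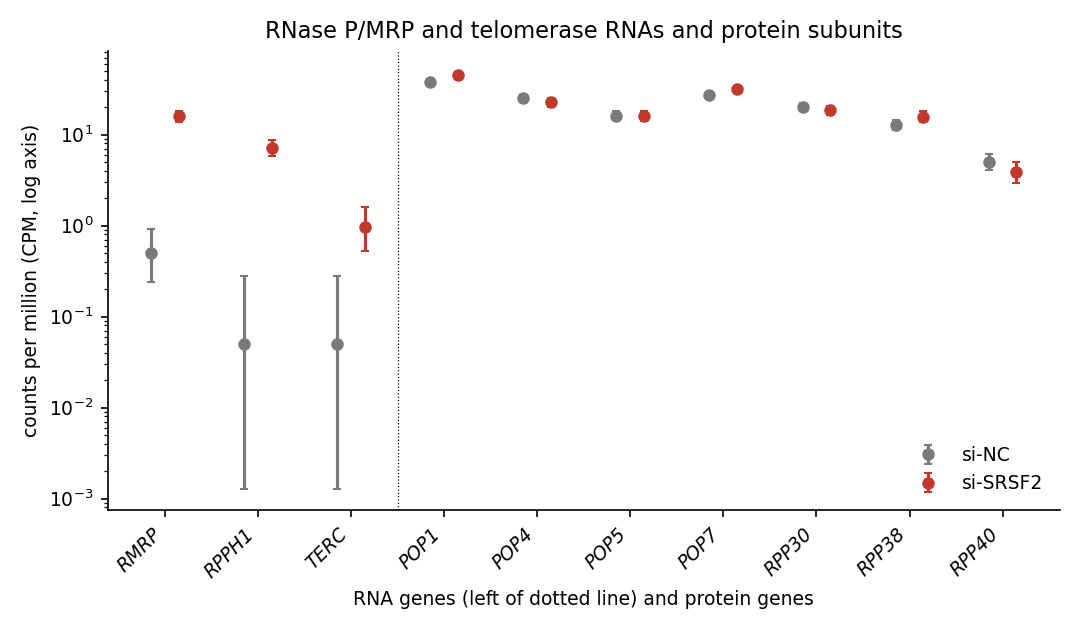
CPM of the 10 members on a log axis in the si-NC (grey) and si-SRSF2 (red) libraries, 1 library each, with bars for 95% Poisson intervals. The 3 RNAs lie far apart between the libraries, RMRP at 0.502 and 15.8 CPM, while the 7 protein genes lie close together.

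Together the 3 RNAs made up 12 counts with si-NC and 348 with si-SRSF2, or 0.602 and 24.0 CPM, a log2 ratio of 5.32 (interval 4.49 to 6.28). RMRP gave most of these counts in each library. Of the 12620 genes averaging at least 1 CPM, 211 (1.67%) were at least 2-fold higher with si-SRSF2 and 127 (1.01%) at least 2-fold lower. With counts of 0 set to 3, RPPH1 had the highest log2 ratio of all 12620 and RMRP the next highest, which again follows from how they were chosen. This order depends on that rule, since ALPI had 0 counts with si-NC and 31 with si-SRSF2 and its ratio has no upper bound. Counts of 1 were left as they were. RPPH1 and TERC thus stood at 0.0502 CPM with si-NC, under the 0.151 CPM set for a count of 0. At 0.151 CPM their ratios would be smaller. A pseudocount, which pulls low counts together, left the direction of all 3 RNAs but reduced the size. With 0.5 CPM added, the log2 ratios were 4.03 for RMRP, 3.80 for RPPH1 and 1.41 for TERC. With 2 CPM added they were 2.83, 2.16 and 0.53.

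**Figure D2:**
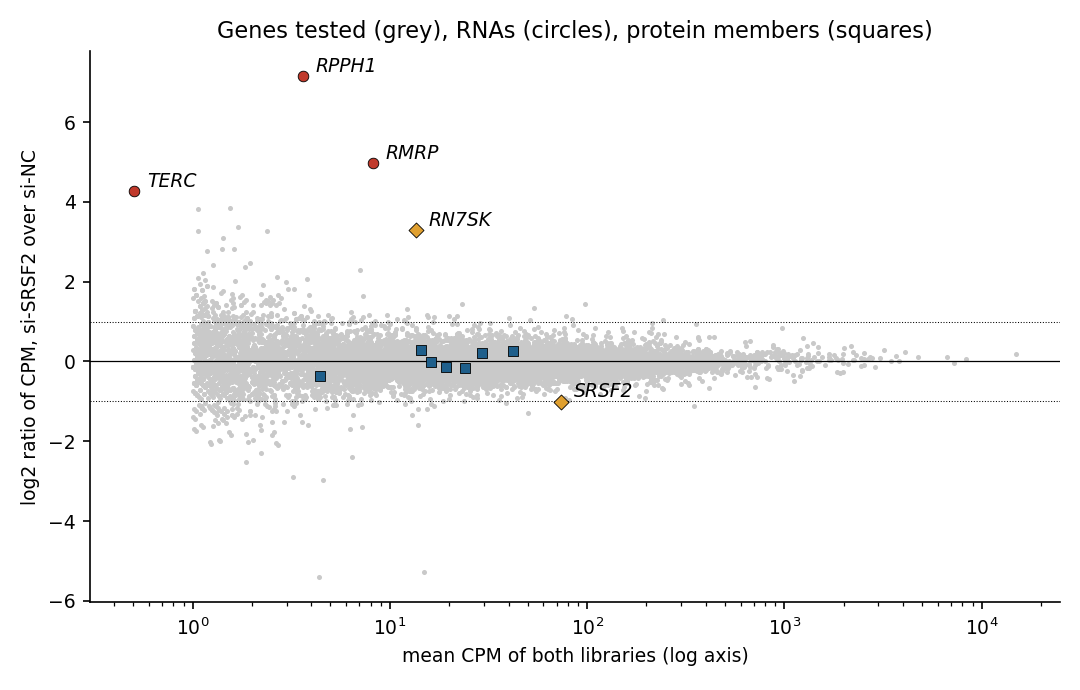
Mean CPM of both libraries (log axis) against the log2 ratio of si-SRSF2 over si-NC for the 12620 genes averaging at least 1 CPM (grey), with RNAs as circles, the 7 protein members as squares, SRSF2 and RN7SK as diamonds, and dotted lines at 2-fold. TERC, under the minimum, is drawn for comparison, and RPPH1 (7.16) and RMRP (4.98) stand at the top when counts of 0 are set to 3, as drawn.

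Genes next to the 3 RNA genes were compared next, since each RNA gene lies close to protein-coding genes. RMRP is 272 bases from CCDC107, which runs the other way, and 857 bases from ARHGEF39. CCDC107 had 489 counts with si-NC and 398 with si-SRSF2, a log2 ratio of 0.16 (interval -0.03 to 0.35), and ARHGEF39 had 68 and 55 (0.15, interval -0.39 to 0.69). ARHGEF39 and CCDC107 overlap on opposite strands, so their counts are uncertain. A further neighbour, SIT1, was at 0 in both libraries. RPPH1 is 207 bases from PARP2, a poly(ADP-ribose) polymerase gene that also runs the other way. PARP2 was lower with si-SRSF2, with 1621 and 1002 counts and a log2 ratio of -0.24 (interval -0.35 to -0.12). CCNB1IP1, 9762 bases from RPPH1, had 2499 and 1474 counts, a log2 ratio of -0.30 (interval -0.40 to -0.21). Near TERC, MYNN had 876 and 635 counts (log2 ratio -0.01, interval -0.16 to 0.14) and ACTRT3 only 19 and 10 (-0.47, interval -1.74 to 0.71). The 6 neighbours with counts thus lay within 0.5 of 0 in log2 ratio. So did 10942 of all 12620 genes, and nothing particular to the neighbours is read from this.

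**Figure D3:**
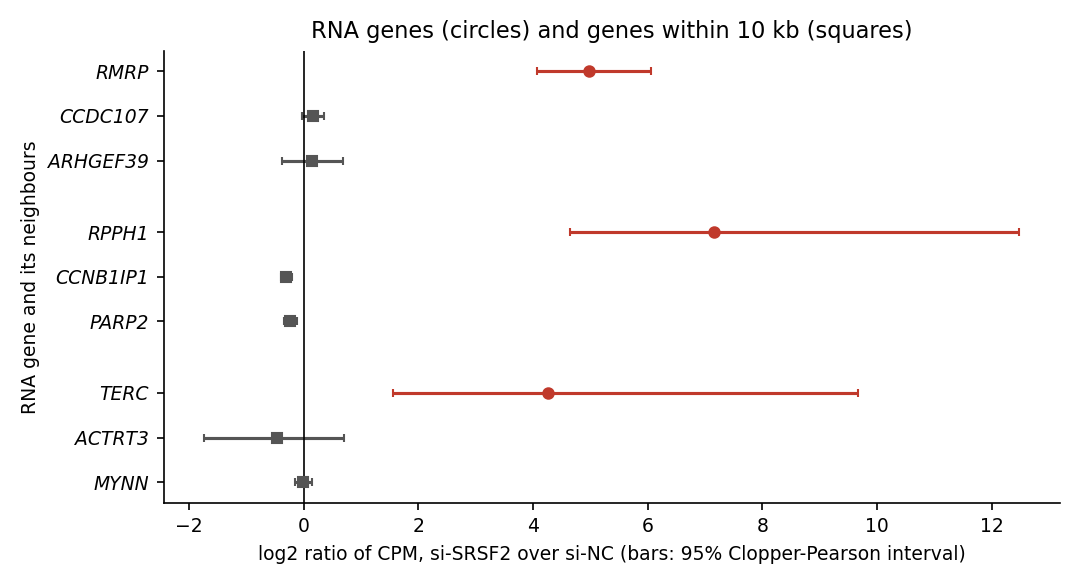
Log2 ratio of si-SRSF2 over si-NC for each RNA gene (red circles) and the counted genes within 10 kb of it (grey squares), with 95% Clopper-Pearson intervals. The neighbours lie between -0.47 and 0.16, and the RNAs at 4.26 or above.

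RPPH1 lies wholly within a long noncoding RNA gene on the same strand in GENCODE release 44 (ENSG00000259001), for which the table has no entry under that name. TERC likewise shares 438 bases with a second annotated RNA on its strand (Telomerase-vert), which the table does not list. The methods name Ensembl 100, but 16148 symbols of the table start with LOC, a form of NCBI names, so overlaps judged by GENCODE may differ from those met in counting, and counts of RPPH1 and TERC are those the table lists under their symbols. The pseudogene copies RMRPP5, RPPH1-2P and RPPH1-3P were listed at 0 in both libraries.

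The regions upstream of RMRP and RPPH1 lead directly to the starts of CCDC107 and PARP2, which run in the opposite direction. The RefSeq table of promoter windows (GRCh38.p14, 300 bases each) held 6 of the 10 members and no entry for RMRP, RPPH1, TERC or POP1. The windows of CCDC107 (chr9:35658042-35658341, plus strand) and PARP2 (chr14:20343385-20343684, plus strand) are shown because they hold the bases upstream of the RNA genes. The first base of the CCDC107 window is 23 bases upstream of the RefSeq start of RMRP, and the PARP2 window covers the start of RPPH1. Both strands were searched for the octamer ATTTGCAT, for TCACCNTAA, a short form of the proximal sequence element of small nuclear RNA genes, and for TATAA. The form TCACCNTAA was spelled out after these windows had been seen. Capitals mark every match, and the 2 RNA genes are read on the opposite strand, from right to left.
CCDC107: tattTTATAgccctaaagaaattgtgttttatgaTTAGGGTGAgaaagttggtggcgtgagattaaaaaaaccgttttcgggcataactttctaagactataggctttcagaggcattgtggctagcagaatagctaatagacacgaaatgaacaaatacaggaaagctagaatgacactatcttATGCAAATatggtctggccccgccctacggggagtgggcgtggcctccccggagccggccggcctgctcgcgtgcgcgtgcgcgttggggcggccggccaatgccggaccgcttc
PARP2: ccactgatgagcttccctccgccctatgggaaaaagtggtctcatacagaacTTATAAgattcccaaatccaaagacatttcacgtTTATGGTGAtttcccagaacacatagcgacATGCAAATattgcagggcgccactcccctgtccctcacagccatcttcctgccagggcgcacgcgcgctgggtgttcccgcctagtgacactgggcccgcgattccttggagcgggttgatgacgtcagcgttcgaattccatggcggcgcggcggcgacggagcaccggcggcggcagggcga

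In the CCDC107 window, matches on the strand of RMRP had their nearest base 27 bases (TATAA), 57 bases (TCACCNTAA) and 208 bases (octamer) upstream of its first base. In the PARP2 window the nearest bases of the same 3 motifs lay 26, 60 and 90 bases upstream of the first base of RPPH1, and TATAA also matched on the plus strand, overlapping the other match by all but 1 base. Of all 35116 windows, 1.77% held the octamer, 0.444% held TCACCNTAA and 20.4% held TATAA on either strand. All 3 together were found in 5 windows, those of CCDC107, PARP2 and LOC105379827 and 2 windows of H2BC12. These are matches of letters and were not measured as bound sites.

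The protein subunits did not follow the RNAs. POP1, the large scaffold subunit, had 762 counts with si-NC and 661 with si-SRSF2, or 38.2 and 45.5 CPM, a log2 ratio of 0.25 (interval 0.10 to 0.40). POP7, which binds RNA as a pair with RPP25, had 544 and 456 counts, or 27.3 and 31.4 CPM (log2 ratio 0.20, interval 0.02 to 0.39). RPP38, a protein that binds kink-turns in RNA, had 256 and 229 counts, or 12.8 and 15.8 CPM (0.30, interval 0.03 to 0.56). These 3 had intervals above 0, with ratios of at most 1.23-fold. Intervals above 0 were found in 21% of all 12620 genes and intervals below 0 in 26.7%, so nothing particular to the subunits is read from these 3. The gene of RPP38 overlaps NMT2 on the opposite strand, and since the counting is not stated to use strand, its value is uncertain.

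The 4 remaining subunit genes had intervals that held 0. POP5, a core subunit that forms a complex with RPP30, had 322 and 234 counts, or 16.2 and 16.1 CPM, and a log2 ratio of -0.0030 (interval -0.25 to 0.24). RPP30 had 402 and 268 counts (log2 ratio -0.13, interval -0.36 to 0.10), and POP4 had 503 and 328 (-0.16, interval -0.36 to 0.04). RPP40 was the least counted, with 99 and 56 counts, or 4.97 and 3.86 CPM (-0.36, interval -0.86 to 0.12). POP5 changed its sign to 0.02 with upper-quartile scaling, and the other 6 kept theirs under every scaling. The median log2 ratio of the 7 was -0.0030, against -0.03 for all 12620 genes, and with upper-quartile scaling it was 0.02. No subunit gene was 2-fold changed in either direction. Of all 12620 genes only 1.67% were at least 2-fold higher and 1.01% lower, so this is not particular to the subunits.

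**Figure D4:**
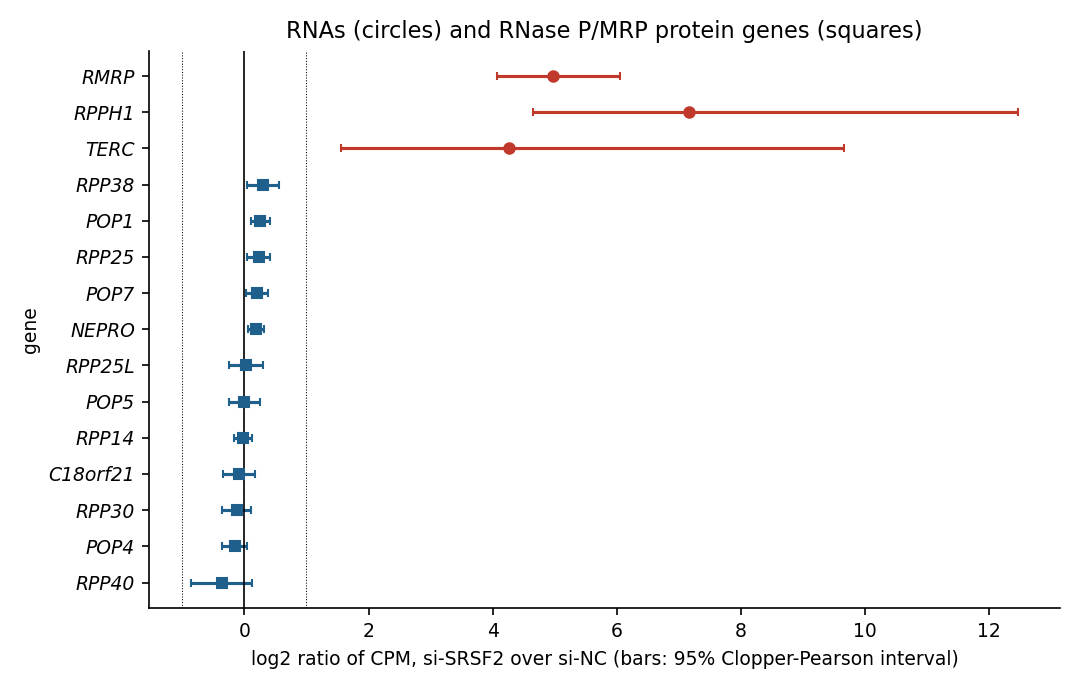
Log2 ratio of si-SRSF2 over si-NC with 95% Clopper-Pearson intervals for RMRP, RPPH1 and TERC (circles) and for 12 RNase P/MRP protein genes (squares), with dotted lines at 2-fold. The protein genes lie between -0.36 and 0.30, the RNAs at 4.26 or above.

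Levels of the RNAs and of the subunit messenger RNAs were set side by side per length of the canonical transcript. In si-NC, RMRP had 1.90 CPM per kb against a median of 8.66 over the 7 subunit genes, and none of the 7 was lower than RMRP. In si-SRSF2, RMRP had 60.03 CPM per kb against a median of 9.61, above all 7. RPPH1 had 0.151 CPM per kb with si-NC and 21.5 with si-SRSF2, where it exceeded 6 of the 7 subunit genes, all but POP7 with 37.0. TERC stayed under all 7 in both libraries, with 0.0927 and 1.78 CPM per kb. The position of RMRP and RPPH1 relative to their protein genes was thus turned over between the libraries. This again follows from how the RNAs were chosen, and the level of RPPH1 with si-NC rests on 1 count. In a poly(A)-selected library, these levels do not give the amount of an RNA without a tail in the cell.

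The other proteins known in RNase P and RNase MRP, where counted, had log2 ratios from -0.09 to 0.23. RPP25, the partner of POP7, had 523 and 446 counts, a log2 ratio of 0.23 (interval 0.04 to 0.41), and its paralog RPP25L had 262 and 194 (0.02, interval -0.25 to 0.30). RPP14 had 957 and 685 counts (-0.02, interval -0.17 to 0.12), and it overlaps HTD2 on the same strand, so its value is uncertain too. NEPRO and C18orf21, both reported as linked to RNase MRP, had log2 ratios of 0.18 (interval 0.06 to 0.31) and -0.09 (interval -0.35 to 0.17). NEPRO overlaps GTPBP8 on the opposite strand, so its value is uncertain. RPP21 was listed at 0 in both libraries. It lies in the major histocompatibility complex on chromosome 6, where TUBB, FLOT1, ABCF1, GNL1 and CSNK2B, chosen after their values were seen, were listed at 0 too. Of the 13 genes on this list, 12 reached 1 CPM, with 6 higher, 6 lower and a median log2 ratio of 0.01. Intervals lay above 0 in 5 of the 12 and below 0 in none, against 21% and 26.7% of all 12620 genes.

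Transfer RNA processing outside the RNase P/MRP protein list was examined with 13 genes, of which 12 reached 1 CPM. Of these, 3 were higher and 9 lower, with a median log2 ratio of -0.11, and 3 had intervals below 0 and none above, against 26.7% and 21% of all 12620 genes. The lowest was ELAC1, at -0.68 (interval -1.52 to 0.11) on 44 and 20 counts. TSEN34 had 1 count with si-NC and 0 with si-SRSF2. No gene of this list was 2-fold changed, which is near the shares of all 12620 genes, 1.67% at least 2-fold higher and 1.01% lower.

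Telomerase proteins were examined beside TERC. TERT, the reverse transcriptase, had 55 counts with si-NC and 29 with si-SRSF2, or 2.76 and 1.998 CPM, with a log2 ratio of -0.47 (interval -1.17 to 0.21) and thus no detectable difference at this depth. Proteins of the H/ACA core that bind TERC differed in direction. DKC1 (0.19, interval 0.09 to 0.29) and NOP10 (0.19, interval 0.09 to 0.28) were higher, GAR1 was lower (-0.21, interval -0.36 to -0.05), and NHP2 was at -0.03 (interval -0.15 to 0.09). The assembly factors NAF1 and SHQ1 had log2 ratios of -0.11 (interval -0.26 to 0.04) and -0.25 (interval -0.47 to -0.03). The helicases RUVBL1 and RUVBL2 were both higher, at 0.29 (interval 0.17 to 0.42) and 0.30 (interval 0.20 to 0.39). WRAP53, which carries telomerase to Cajal bodies, was at 0.07 (interval -0.14 to 0.28), and TEP1, a telomerase-associated protein, at -0.07 (interval -0.20 to 0.06).

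Factors that form the ends of TERC were also on the telomerase list, among them TOE1 and PARN, the genes with its highest and lowest log2 ratio. TGS1, which modifies the 5′ cap, was at 0.31 (interval 0.17 to 0.45). TOE1, an exonuclease that removes adenosines from the 3′ end of small RNAs, had 109 and 156 counts, or 5.47 and 10.7 CPM, and a log2 ratio of 0.97 (interval 0.61 to 1.34). PARN, a deadenylase that also trims TERC, had 28 and 9 counts, or 1.40 and 0.620 CPM, and a log2 ratio of -1.18 (interval -2.45 to -0.06). PARN was the only gene of the list past 2-fold, against 1.67% of all 12620 genes at least 2-fold higher and 1.01% at least 2-fold lower. However, PARN reached a mean of 1 CPM only through si-NC, where it was high. With a pseudocount of 0.5 CPM it was at -0.77. TENT4B, the polymerase that adds adenosines to TERC, was at 0.04 (interval -0.14 to 0.21). Among the factors of nuclear RNA decay, RBM7 was at 0.16 (interval 0.03 to 0.29), ZCCHC8 at -0.15 (interval -0.32 to 0.01), MTREX at 0.03 (interval -0.06 to 0.12) and EXOSC10 at -0.15 (interval -0.26 to -0.04). Over all 19 genes, 10 were higher and 9 lower, with a median of 0.03. Of their intervals 7 lay above 0 and 4 below, against 21% and 26.7% of all 12620 genes. Overlaps of these genes with others were not examined, so values such as that of TOE1 may be uncertain.

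**Figure D5:**
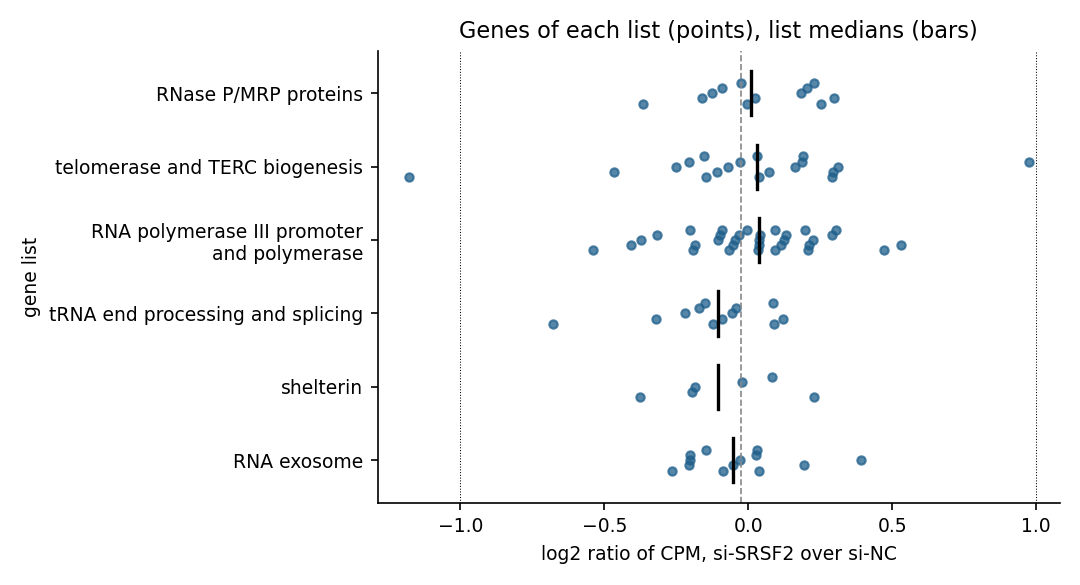
Log2 ratio of si-SRSF2 over si-NC for the genes of 6 lists averaging at least 1 CPM (points), the median of each list (black bars) and the median of all 12620 genes (dashed line, -0.03), with dotted lines at 2-fold. The medians lie between -0.11 and 0.04, and PARN (-1.18) and TOE1 (0.97) stand apart in the telomerase list. PARN rests on 28 and 9 counts and was at -0.77 with a pseudocount of 0.5 CPM.

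Shelterin, the complex that covers telomeres, had 2 of 6 genes higher and 4 lower, with a median of -0.10 and 1 interval above 0 and 1 below, against 21% and 26.7% of all 12620 genes. TERF2IP was lowest at -0.38 (interval -0.51 to -0.25), and POT1, which binds the single-stranded end, was highest at 0.23 (interval 0.08 to 0.37).

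RNA polymerase III and the factors of its promoters were examined because RMRP, RPPH1 and RN7SK are transcribed by it. All 32 genes reached 1 CPM, with 17 higher and 15 lower and a median of 0.04. Of their intervals 7 lay above 0 and 7 below, again against 21% and 26.7% of all 12620 genes. GTF3C6, a subunit of the factor TFIIIC, was the highest at 0.53 (interval 0.33 to 0.74). POLR3G, a polymerase subunit with the paralog POLR3GL, was the lowest at -0.54 (interval -0.66 to -0.42). None of the 32 was 2-fold changed, against 1.67% of all 12620 genes at least 2-fold higher and 1.01% lower, so nothing particular is read from this. The RNA exosome, which degrades nuclear RNA, had 5 of 13 genes higher and 8 lower, with a median of -0.05, and 2 intervals above 0 and 5 below, against the same 21% and 26.7%. EXOSC2 was the highest at 0.39 (interval 0.29 to 0.49) and EXOSC4 the lowest at -0.26 (interval -0.53 to 0.0020).

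Other RNAs without a poly(A) tail were compared with RMRP, RPPH1 and TERC. RN7SK, which holds the elongation factor P-TEFb inactive, had 50 counts with si-NC and 357 with si-SRSF2, or 2.51 and 24.6 CPM, a log2 ratio of 3.29 (interval 2.86 to 3.75). Among 18 such RNAs named singly, 13 were at 0 in both libraries, among them RN7SL1, RNY1 and RNU4-1, and 4 had 1 or 2 counts in all. Small nucleolar RNAs lie mostly within introns of other genes. Those of the SNORD kind summed to 2567 and 1766 counts, a log2 ratio of -0.08 (interval -0.17 to 0.01), and those of the SNORA kind to 4136 and 2884 (-0.06, interval -0.13 to 0.01). SNORA104 alone gave 1978 and 1536 of the SNORA counts. Among the 35 SNORD and 25 SNORA symbols with a mean of 1 CPM, 4 were at least 2-fold higher and 2 at least 2-fold lower, against 1.67% and 1.01% of all 12620 genes. The 4, SNORD101, SNORA27, SNORA50A and SNORA62, had log2 ratios from 1.01 to 1.46, but they were under 1 CPM with si-NC and reached the mean only through si-SRSF2, and the interval of SNORA27 held 0. SNORD80 was at -1.10, and SNORA9, which reached the mean only through si-NC, at -1.84.

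The Cajal body RNAs of the SCARNA kind summed to 89 counts with si-NC and 117 with si-SRSF2, a log2 ratio of 0.85 (interval 0.44 to 1.27). Symbols that start with RNU, most of them copies of spliceosomal RNA genes, summed to 640 and 577 counts (0.31, interval 0.14 to 0.47). Only 6 of them had a mean of 1 CPM, and of these RNU6-312P was the highest at 0.96 and RNU6-1016P, which reached the mean only through si-NC, the lowest at -1.33. RN7SL and its copies summed to 400 and 378 counts (0.38, interval 0.17 to 0.58). The 5 of them with a mean of 1 CPM lay between -0.49 for RN7SL481P and 0.67 for RN7SL737P, which reached the mean only through si-SRSF2. Replication-dependent histone genes, whose messenger RNAs end without a tail, summed to 1670 and 1332 counts (0.13, interval 0.03 to 0.24). HIST1H2BD was the only one of the 14 with a mean of 1 CPM that was at least 2-fold higher, against 1.67% of all 12620 genes. It had 29 and 74 counts (1.81, interval 1.17 to 2.48), which are part of the sum whose interval began at 0.03. HIST1H2BN, which reached the mean only through si-NC, was the lowest at -0.44.

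Length was examined as well, with a limit of 200 bases chosen after the values were seen. Leaving out the 3 RNAs and pseudogenes, 16 structured RNAs of at least this length had any count, 11 of them higher in CPM with si-SRSF2 and 5 lower, against 5830 higher and 6790 lower of all 12620 genes. Most of the 16 had few counts, down to 1 in all. They include RNAs under a mean of 1 CPM, which the 12620 genes do not, so the 2 sets are unlike. Without a filter the median log2 ratio of all genes was 0.0040, against -0.0261 for the 12620. RN7SK, SNORD17, SNORA71B, SNORA73A and SNORA73B had at least 20 counts in each library, and the latter 4 had log2 ratios from 0.09 to 0.79. SCARNA10, which reached a mean of 1 CPM only through si-SRSF2, had 9 and 27 counts, a log2 ratio of 2.04 (interval 0.91 to 3.32). RN7SL3 had 6 and 20 (2.19, interval 0.83 to 3.80), and SCARNA12 had 8 and 14 (1.26, interval -0.09 to 2.72). In the other direction, SNORA53 had 12 and 3 counts (-1.54, interval -4.01 to 0.35) and SNORA74B 3 and 0, while SCARNA2 had 0 and 7 and SCARNA7 0 and 3. Without RN7SK, the RNAs of at least 200 bases summed to 242 counts with si-NC and 254 with si-SRSF2, a log2 ratio of 0.53 (interval 0.27 to 0.79). RN7SK thus had an interval above 0, in the same direction as RMRP, RPPH1 and TERC. So did this sum and the sums of SCARNA, RNU, RN7SL and histone symbols. However, this sum shares RN7SL3 and 5 SCARNA genes with theirs and does not stand apart from them. The RNU and RN7SL sums are mostly those of copies, while RN7SL1 and RNU4-1 were at 0. Whether the counts of these copies come from RNA without a tail was not tested. The histone interval began at 0.03 with HIST1H2BD in the sum, and the median of the 14 histone genes was -0.06. The intervals of the summed SNORD and SNORA held 0, but the SNORA sum rests largely on SNORA104 and was not taken without it. How far RNA without a tail entered each library, and its part in the values of RMRP, RPPH1 and TERC, was not tested.

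The genes whose log2 ratio was nearest to that of RMRP were taken from those with at least 20 counts over both libraries, each compared over the 2 libraries only. They held ranks 3 to 7 among the 12620 genes, so they are the next highest ratios after RMRP rather than genes close to it. DDT had 4 counts with si-NC and 42 with si-SRSF2, a log2 ratio of 3.85 (interval 2.39 to 5.79), which was 1.13 below RMRP. ALPI had 0 and 31 counts, with an interval that began at 10.87-fold and had no upper end, so that its place among the nearest rests on its 0 being set to 3 counts. Both genes have close copies in the genome, DDTL and ALPP among them, so that their counts are uncertain. SYCP2L had 6 and 45 counts (3.36, interval 2.13 to 4.88), RN7SK had 50 and 357 as given above, and PTPRK had 9 and 63 (3.26, interval 2.25 to 4.46). LOC105371413, with 4 and 28 counts, had the same ratio as PTPRK and tied for the last place. RN7SK was the only one of the 5 with more than 10 counts with si-NC. The other 4 were under 1 CPM there and reached the mean of 1 CPM only through si-SRSF2.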

How the data were processed

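The 2 libraries, 1 of si-NC and 1 of si-SRSF2 RKO cells, were poly(A)-selected and strand-specific. According to the methods and the submitters' processing notes, the authors aligned clean reads to GRCh38 with HISAT2 2.0.4 and counted them per gene with HTSeq, in a strand mode that is not given in the sources used here. The deposited table gives unnormalized counts under gene symbols.

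Each count was scaled by a TMM library size (edgeR 4.0.16, R 4.3.3) and expressed as CPM. The log2 ratio of si-SRSF2 over si-NC used no pseudocount, and a count of 0 was set to 3 counts. Ratios had 95% Clopper-Pearson intervals and levels exact Poisson intervals (SciPy 1.17.1). Genes averaging at least 1 CPM were compared. With 1 library per group no test was run. The depth was 19931360 and 14512802 counts. The calculation was tested on simulated data.

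Members and gene lists were chosen with earlier results of these data known. Named genes were SRSF2, the members, all genes of the RNase P/MRP and telomerase lists, the extremes and 2-fold changed genes of the other lists, neighbours within 10 kb, and the 5 genes nearest to RMRP. One gene under this rule is not reported here. Positions came from GENCODE release 44 and promoter windows from RefSeq. Alternatives were pseudocounts of 0.5 and 2 CPM, scaling by upper quartiles, by total counts or by DESeq2 1.42.0 size factors, other filters, and leaving out mitochondrial and the 20 most abundant genes.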

Additional observations from a re-analysis of the deposited data

How the results depend on the processing

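No paired analysis was possible because only 1 library stood for either group, which also left none to leave out. Over all settings run, the list medians ranged from 0.0091 to 0.0350 for RNase P/MRP, 0.0284 to 0.0534 for telomerase and 0.0310 to 0.0602 for polymerase III, and the median of the 7 protein members turned from -0.0030 to 0.02 with upper-quartile factors and to 0.10 at a minimum of 5 CPM, where RPP40 drops out. The summed log2 ratio of RMRP, RPPH1 and TERC, 5.32, was 4.47 with a pseudocount of 0.5 CPM and 3.32 with one of 2 CPM, which acts on low counts by construction. The other scalings moved it to at most 5.34. Genes at least 2-fold higher and lower, 211 and 127, came to 107 and 63 with 0.5 CPM, 28 and 17 with 2 CPM, 1584 and 936 without a filter, and 33 and 23 at a minimum of 5 CPM; the filters change which genes are counted. Of 510 single-gene values, 491 stayed inside the main interval, 19 did not, all under a pseudocount and from 13 genes, and none past 2-fold with an interval clear of 0 changed its direction. SRSF2 was at -0.98 with upper-quartile factors. Among the members, RPPH1 and TERC had the widest intervals, each with 1 count in si-NC.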
